A study of Canis lupus familiaris with 6 samples.

Results

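The enzymes described here are those of glycolysis, the pentose phosphate pathway and the citric acid cycle, with the PFKFB enzymes, pyruvate carboxylase and the malic enzymes that feed or regulate them. They were measured in MDCK cells, a dog kidney epithelial line, on single-colour Agilent canine expression arrays. Of 47 enzymes listed, 44 had at least 1 probe under their own symbol, out of 34378 gene names and identifiers on the array. RPIA, ENO1 and TALDO1 had no probe so named and are not analysed here. The 44 genes had 96 of the 43603 probes, and each gene was read from its brightest probe, by mean log2 signal over all 6 arrays. The choice of probe used no difference between the cultures.

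All 6 samples were MDCK-pTR cells with GFP-RasV12 and, in addition, mCherry-β-catenin Δ131: both cultures carry stabilised β-catenin and both carry GFP-tagged active Ras, switched on by tetracycline for 24 h. In the single culture (3 arrays) these cells grew alone. In the mix culture (3 arrays) each grew among 10 MDCK mCherry-β-catenin Δ131 cells, which lack RasV12. GFP-positive cells were sorted from both cultures, so the comparison asks what neighbours without RasV12 change in the RasV12 cells. The labels do not say whether replicates were separate cultures, so p-values measure the spread between these samples, which may be technical. Replicate 1 of each culture lay on one slide (slide 1) and replicates 2 and 3 on another (slide 2), read with another scan resolution and software version.

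Glycolysis splits glucose to pyruvate in the cytosol and yields ATP and NADH. The pentose phosphate pathway branches from its first intermediate, and makes NADPH for synthesis and antioxidant defence and ribose for nucleotides. The citric acid cycle oxidises acetyl groups in mitochondria and supplies electrons to the respiratory chain. Kidney epithelial lines in culture use both glycolysis and respiration, and active Ras is known for raising glucose use.

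None of these enzymes passed the test between the cultures. Of the 41 genes tested, limma called 0 at an adjusted p under 0.05, beside 0.883% of all 26623 probes tested, and all 41 log2 differences lay between -0.49 (IDH3B) and 0.35 (IDH1), that is, within 1.41-fold. The remaining members, PGAM2, PFKFB1 and PFKFB4, were not well above background on any array and were not tested. At an unadjusted p under 0.05 there were 2 members, SUCLG2 and IDH3B, both lower in mix culture, or 4.88% beside 8.71% of all probes. The methods' t-test called 0 members after adjustment, but it called almost none of all 26623 probes, so that count says little about the members. Before adjustment it had 1 member (2.44%), beside 9.73% of all probes.

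With slide as a block, which takes out what the arrays of a slide share, 0 of 41 members passed, beside 7.20% of all probes, and 8 (19.5%) had an unadjusted p under 0.05, beside 25.9% of all probes. The replicate number as a block gave 0 members, beside 5.25% of all probes, and 7 (17.1%) had an unadjusted p under 0.05, beside 22.8%. On slide 2 alone limma called 0 members, beside 3.72%, and 3 (7.32%) had an unadjusted p under 0.05, beside 17.4%. The lowest adjusted p of a member was 0.542 without a block and 0.0799 with the slide block, both for SUCLG2. The authors' own table of log2 values, centred within each slide, gave 3 calls among the members (IDH1, PGD and SUCLG2) beside 15.3% of all probes. That fit did not count the centring as used degrees of freedom.

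A p that misses the threshold does not show that the levels are alike, so intervals are given. The standard error of a member's difference had a median of 0.23 without a block and 0.12 with the slide block. Without a block, the 95% interval lay within 1 log2 unit (2-fold) of 0 for 31 of 41 members. With the slide block it did so for all 41, and it lay within 0.5 of 0 for 27. The widest reach with the block was -0.87 for IDH3B and 0.70 for PFKFB3.

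**Figure D1:**
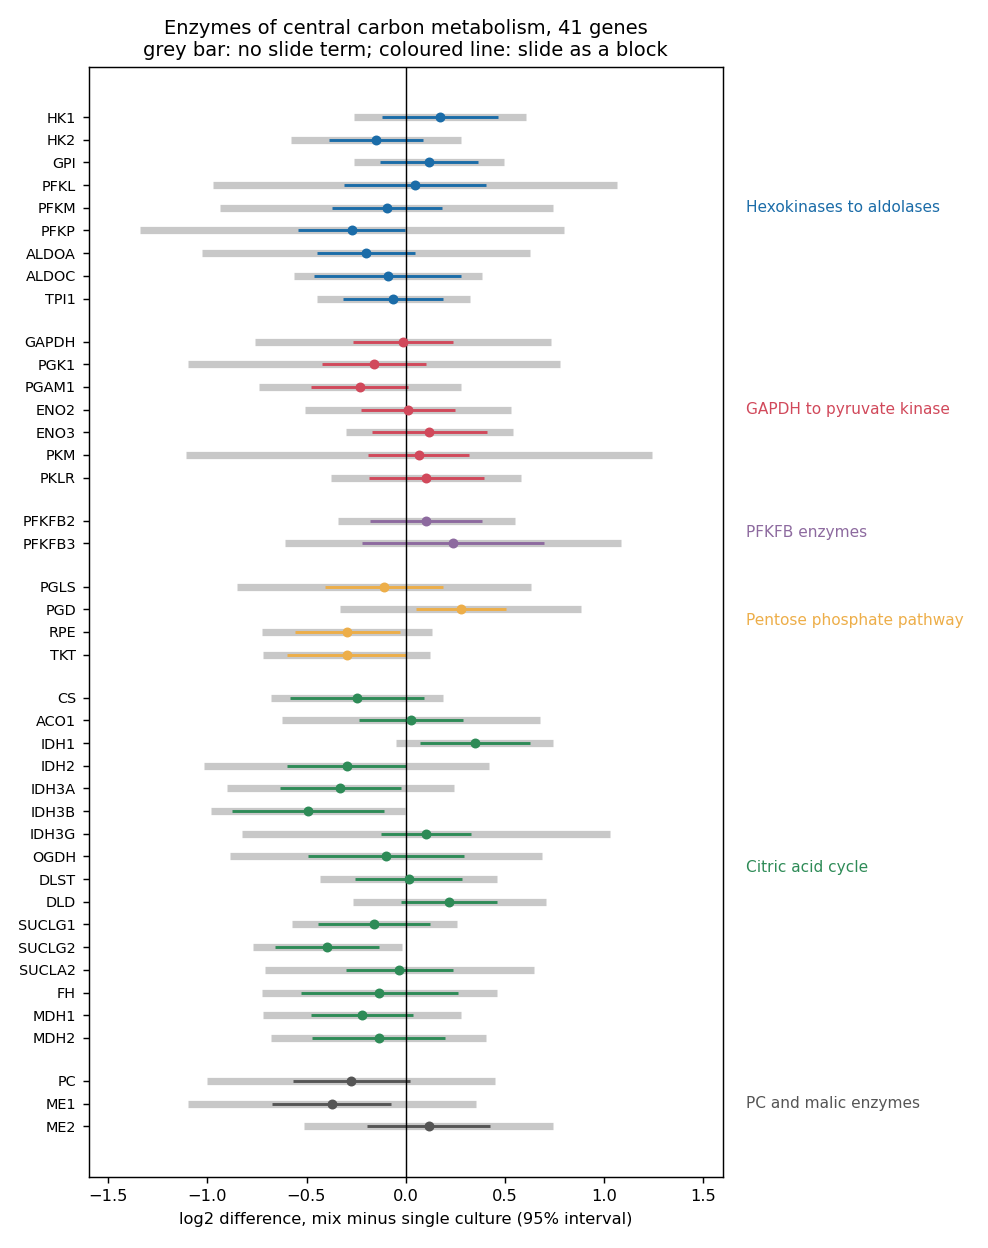
Log2 difference between mix and single culture for the 41 tested enzymes, grouped by role (vertical axis, gene). The horizontal axis is the log2 difference; the grey bar is the 95% interval of limma without a block, and the coloured point and line are the estimate and 95% interval with slide as a block (3 arrays a culture). All points lie between -0.49 and 0.35, and the grey bars are longest for PKM, PFKP and PFKL.

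The array reads each messenger RNA through strands of 60 bases. The following probes belong to enzymes with larger differences and are shown because each has at least 1 sense reading frame free of stop codons, so a reader can see which stretch of message the value stands for. Positions are those of the scanner files on CanFam3.1, and letters run 5′ to 3′ in the direction of the message. PFKP lies on chromosome 2 (chr2:32221264-32221612, minus strand) and PGD on the same chromosome (chr2:85394277-85394472, minus strand). CS lies at chr10:585964-586023, minus strand, IDH2 at chr3:53070720-53070779, minus strand, and PC at chr18:50506459-50506518, plus strand. The PFKP probe spans 349 bases of genome and the PGD probe 196, more than their own length, so both bridge a gap such as an intron.
PFKP: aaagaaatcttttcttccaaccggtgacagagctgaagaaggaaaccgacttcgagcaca
PGD: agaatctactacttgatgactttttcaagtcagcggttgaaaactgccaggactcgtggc
CS: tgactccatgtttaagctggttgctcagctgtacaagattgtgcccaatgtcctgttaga
IDH2: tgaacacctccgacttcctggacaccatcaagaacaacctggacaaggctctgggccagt
PC: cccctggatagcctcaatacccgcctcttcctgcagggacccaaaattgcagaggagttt

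GAPDH had 7 probes, and 4 of them cover one stretch of the message on chromosome 27, each bridging a gap (span 169 bases). They are shown because they overlap and yet differ in letters. They share 44 positions, and at 5 of the 76 positions covered they do not have the same base, which is in capitals.
A_11_P053321: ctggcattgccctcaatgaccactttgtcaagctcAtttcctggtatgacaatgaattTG
A_11_P059521: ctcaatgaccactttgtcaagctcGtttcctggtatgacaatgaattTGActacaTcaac
A_11_P052601: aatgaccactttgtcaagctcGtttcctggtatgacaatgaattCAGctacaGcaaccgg
A_11_P050246: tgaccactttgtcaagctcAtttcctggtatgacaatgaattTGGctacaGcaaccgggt

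The 4 probes gave log2 differences of -0.03 (A_11_P053321), 0.00 (A_11_P059521), 0.02 (A_11_P052601) and -0.01 (A_11_P050246), and all 7 lay between -0.03 and 0.03. GAPDH, which oxidises glyceraldehyde 3-phosphate and is often used as a reference gene, read 8.11, 8.79 and 8.75 in single culture and 7.92, 8.77 and 8.92 in mix culture. These levels, like those that follow, are log2 of the background-subtracted signal minus the 75th percentile of the same array, for replicates 1 to 3 in turn. Both slide 1 arrays were lower than all 4 slide 2 arrays, whichever the culture. The difference between cultures was -0.01 ± 0.32 (SE, 3 arrays a culture), and its sign turned under quantile normalization, where it was 0.14. GAPDH has many near-identical copies in mammalian genomes, and the array cannot split signal among copies that share these letters.

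Among the first steps of glycolysis, none of the 9 members tested was called, and the median difference was -0.09. The hexokinases trap glucose as its phosphate. HK1 differed by 0.17 and HK2 by -0.15, and the second HK2 probe by -0.30. GPI, which turns glucose 6-phosphate to fructose 6-phosphate, differed by 0.12.

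Phosphofructokinase, the committed step, has 3 isoform genes, PFKL, PFKM and PFKP. PFKP, the platelet-type isoform, read 2.78, 3.80 and 4.11 in single culture and 2.46, 3.74 and 3.67 in mix culture, a difference of -0.27 ± 0.45 (limma adjusted p = 0.958). The groups overlapped, and the slide 1 array was the lowest in both cultures. PFKM, the muscle-type isoform, differed by -0.10.

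PFKL, the liver-type isoform, differed by 0.05 on its brightest probe, with an adjusted p of 0.866 with the slide block. Its dimmer probe (A_11_P215198), which bridges 661 bases of genome, differed by 0.41, with an adjusted p of 0.774 without a block and 0.0484 with it. It was the only 1 of the 91 member probes tested (1.1%) that passed with the slide block, beside 7.20% of all probes. Without a block 0 of the 91 passed, beside 0.883% of all probes. The difference was 0.48 on slide 1 and 0.37 on slide 2 for that probe, against -0.07 and 0.11 for the brighter one. Which of the probes stands for the PFKL message cannot be told from the arrays.

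The aldolases split fructose bisphosphate, and ALDOA differed by -0.20 and ALDOC by -0.09. TPI1, which interconverts the triose phosphates, differed by -0.06, and its sign turned under quantile normalization (0.11).

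In the later steps of glycolysis, from GAPDH to pyruvate kinase, the 7 members tested had a median difference of 0.01 and 0 were called. PGK1, which makes the first ATP, differed by -0.16, and PGAM1, the phosphoglycerate mutase, by -0.23, with all 3 of its probes between -0.23 and -0.10. The neuronal enolase ENO2 differed by 0.01 and the muscle enolase ENO3 by 0.12.

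Pyruvate kinase closes the pathway. PKM, its form in most proliferating cells, differed by 0.07, but read 2.63 and 2.74 on slide 1 and between 3.88 and 4.13 on slide 2. Its second probe differed by -0.13. PKLR, the liver and red cell gene, differed by 0.10.

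The PFKFB enzymes make and break the fructose bisphosphate isomer that activates phosphofructokinase. PFKFB2 differed by 0.10. PFKFB3 read 6.05, 4.74 and 4.99 in single culture and 5.76, 5.62 and 5.13 in mix culture, a difference of 0.24 ± 0.36. The difference was -0.29 on slide 1 and 0.51 on slide 2, so the slides gave opposite signs. All 4 of its tested probes did the same, with pooled differences between 0.24 and 0.33.

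Of 4 pentose phosphate enzymes tested 0 were called, and the median difference was -0.20. PGD, the second NADPH-forming enzyme of the oxidative branch, read 3.20, 3.76 and 3.82 in single culture and 3.44, 4.10 and 4.08 in mix culture. Mix culture was higher on each slide, by 0.24 on slide 1 and 0.30 on slide 2, but the slide 1 arrays sat so low that the groups overlapped. The difference was 0.28 ± 0.26, with limma adjusted p = 0.886 without a block and 0.129 with the slide block (95% interval 0.05 to 0.50). Without single culture replicate 1 it was 0.08.

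TKT and RPE belong to the non-oxidative branch, which links pentoses back to glycolysis. TKT, the transketolase, read 7.09, 6.58 and 6.71 in single culture and 6.48, 6.55 and 6.46 in mix culture. Every mix array was below every single array, though by 0.03 between the nearest, and the slide 1 pair held most of the difference (-0.61, against -0.14 on slide 2). The adjusted p was 0.768, and 0.194 with the slide block.

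RPE, the ribulose phosphate epimerase, read 2.77, 2.24 and 2.43 in single culture and 2.28, 2.12 and 2.16 in mix culture. The groups overlapped by the highest mix array and the lowest single array. The difference was -0.29 ± 0.18 (adjusted p = 0.775, and 0.160 with the slide block). PGLS, the lactonase of the oxidative branch, differed by -0.11.

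The citric acid cycle gave the widest range, with 16 members tested, 0 called and a median difference of -0.13. Of these, 11 had a fitted difference below 0 and 5 above. Across the 41 members it was 25 below and 16 above, so 39.0% were above 0, beside 42.0% of all probes. The members' median was -0.10, beside -0.05 over all probes. Without mix culture replicate 1 the members' median was 0.05.

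CS, citrate synthase, which starts the cycle, read 3.15, 2.65 and 2.85 in single culture and 2.54, 2.57 and 2.81 in mix culture. The groups overlapped, and nearly all of the difference of -0.24 ± 0.18 came from slide 1 (-0.61, against -0.06 on slide 2). ACO1, the cytosolic aconitase that doubles as an iron sensor, differed by 0.03.

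Isocitrate dehydrogenase exists as cytosolic IDH1 and mitochondrial IDH2, which use NADP, and as the NAD-linked IDH3 complex of IDH3A, IDH3B and IDH3G. IDH1 read 0.27, 0.22 and 0.42 in single culture and 0.44, 0.85 and 0.67 in mix culture. Every mix array was above every single array, though by 0.02 between the nearest, and the difference was 0.17 on slide 1 and 0.44 on slide 2. It was the only 1 of the 41 members that stood wholly above, beside 7.85% of all probes. The difference was 0.35 ± 0.17, with adjusted p = 0.661, and 0.122 with the slide block (95% interval 0.07 to 0.63). Its second probe differed by 0.30.

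IDH2 read 4.43, 4.99 and 4.84 in single culture and 3.81, 4.78 and 4.77 in mix culture. The lowest array was mix culture on slide 1, and the groups overlapped. The difference was -0.30 ± 0.30 (adjusted p = 0.903, and 0.196 with the slide block), made up of -0.62 on slide 1 and -0.14 on slide 2.

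IDH3B, a regulatory subunit, had the lowest difference of all members. It read 2.16, 1.83 and 2.22 in single culture and 1.24, 1.79 and 1.70 in mix culture, so that the groups did not overlap but came within 0.04 of each other. The difference was -0.49 ± 0.21 (unadjusted p = 0.0483, limma adjusted p = 0.568, and adjusted p = 0.116 with the slide block). On slide 1 it was -0.91 and on slide 2 it was -0.28, and on the second probe it was -0.26.

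IDH3A, the catalytic subunit, read 5.30, 4.60 and 4.81 in single culture and 4.85, 4.26 and 4.61 in mix culture. Mix culture was lower on each slide, yet the groups overlapped. The difference was -0.33 ± 0.24 (adjusted p = 0.831, and 0.168 with the slide block), while its 2 other probes differed by -0.28 and -0.04. IDH3G, the other regulatory subunit, differed by 0.10, so the point estimates for the 3 subunits of one complex did not share a sign.

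The oxoglutarate dehydrogenase complex makes succinyl-CoA. OGDH, its first enzyme, differed by -0.10, DLST, its core, by 0.01 and DLD, a subunit that pyruvate dehydrogenase shares, by 0.22. The slides disagreed for OGDH, with -0.60 on slide 1 and 0.15 on slide 2.

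Succinyl-CoA synthetase joins the shared subunit SUCLG1 to either SUCLG2, which makes GTP, or SUCLA2, which makes ATP. SUCLG2 read 4.20, 3.84 and 3.91 in single culture and 3.58, 3.57 and 3.62 in mix culture. Every mix array was below every single array, with an SD of 0.03 over the 3 mix arrays and 0.19 over the 3 single arrays. The difference was -0.39 ± 0.16 (unadjusted p = 0.0415, adjusted p = 0.542, and 0.0799 with the slide block), with -0.62 on slide 1 and -0.28 on slide 2.

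All 3 SUCLG2 probes behaved alike, with differences of -0.39, -0.29 and -0.39 and no overlap between the cultures, though probes of one gene read the same RNA and are not replicates. The 5 SUCLA2 probes lay between -0.03 and 0.02, and SUCLG1 differed by -0.16. Whether SUCLG2 and SUCLA2 differ in their response was not tested.

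Further round the cycle, fumarase FH differed by -0.13, with -0.53 on slide 1 and 0.07 on slide 2. The malate dehydrogenases MDH1, of the cytosol, and MDH2, of the mitochondrion, differed by -0.22 and -0.14.

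Pyruvate carboxylase and the malic enzymes connect the cycle to pyruvate, and 0 of these 3 genes were called. ME1, the cytosolic malic enzyme and a source of NADPH, read 3.42, 2.49 and 2.39 in single culture and 2.72, 2.28 and 2.18 in mix culture. Mix culture was lower on both slides, and the high slide 1 arrays made the groups overlap. The difference was -0.37 ± 0.31 (adjusted p = 0.856, and 0.124 with the slide block), and -0.05 without single culture replicate 1. Its 5 probes all differed in the same direction, between -0.44 and -0.25. ME2, the mitochondrial enzyme, differed by 0.12.

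PC, which makes oxaloacetate from pyruvate and opens gluconeogenesis, read -2.75, -1.73 and -2.06 in single culture and -2.87, -2.32 and -2.16 in mix culture. The groups overlapped, with slide 1 lowest in both. The difference was -0.27 ± 0.31 (adjusted p = 0.921, and 0.219 with the slide block), and it was -0.05 without single culture replicate 2.

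**Figure D2:**
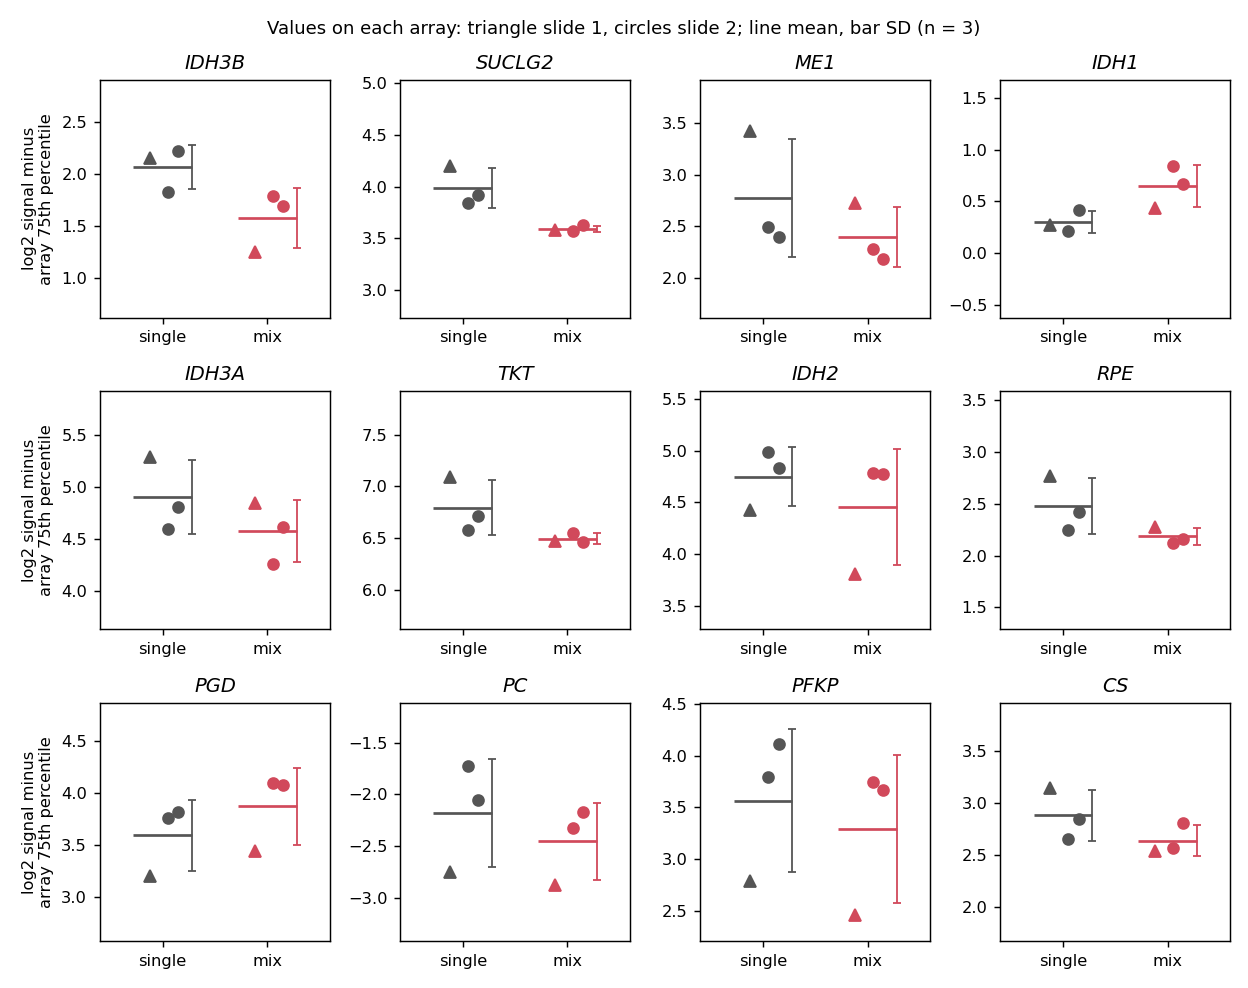
Level on each array (vertical axis, log2 signal minus the array's 75th percentile) for the 12 members with the largest absolute differences, in single culture (grey) and mix culture (red). Triangles are slide 1 and circles slide 2, lines are means and bars are SD over 3 arrays. All panels span the same range, and only in IDH3B, SUCLG2, IDH1 and TKT do the cultures not overlap.

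In all, 4 of 41 members (9.76%) had no overlap between the cultures, beside 16.5% of all probes. These were IDH1, above, and IDH3B, SUCLG2 and TKT, below, the latter beside 8.66% of all probes. That share is under the background, and all 41 differences were below 0.5 in size, as were those of 90.5% of all probes.

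The larger source of spread was the slide. The difference between slide 2 and slide 1 was larger than the difference between the cultures in 35 of 41 members, with a median size of 0.46 against 0.15. With culture in the model, limma called the slide difference for 24 members (58.5%), beside 47.2% of all probes, with 15 higher on slide 2 and 9 lower. PKM was higher on slide 2 by 1.35, PFKP by 1.20, PFKL by 1.1 and IDH3G by 1.04.

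Isoforms of one enzyme went opposite ways between slides. PFKM was lower on slide 2 by a log2 difference of -0.90 while PFKL and PFKP were higher, and PGK1 stood at -1.04 while its neighbour in the pathway, GAPDH, stood at 0.79. Slide, scan resolution, software version and whatever set replicate 1 apart as a culture cannot be told apart.

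**Figure D3:**
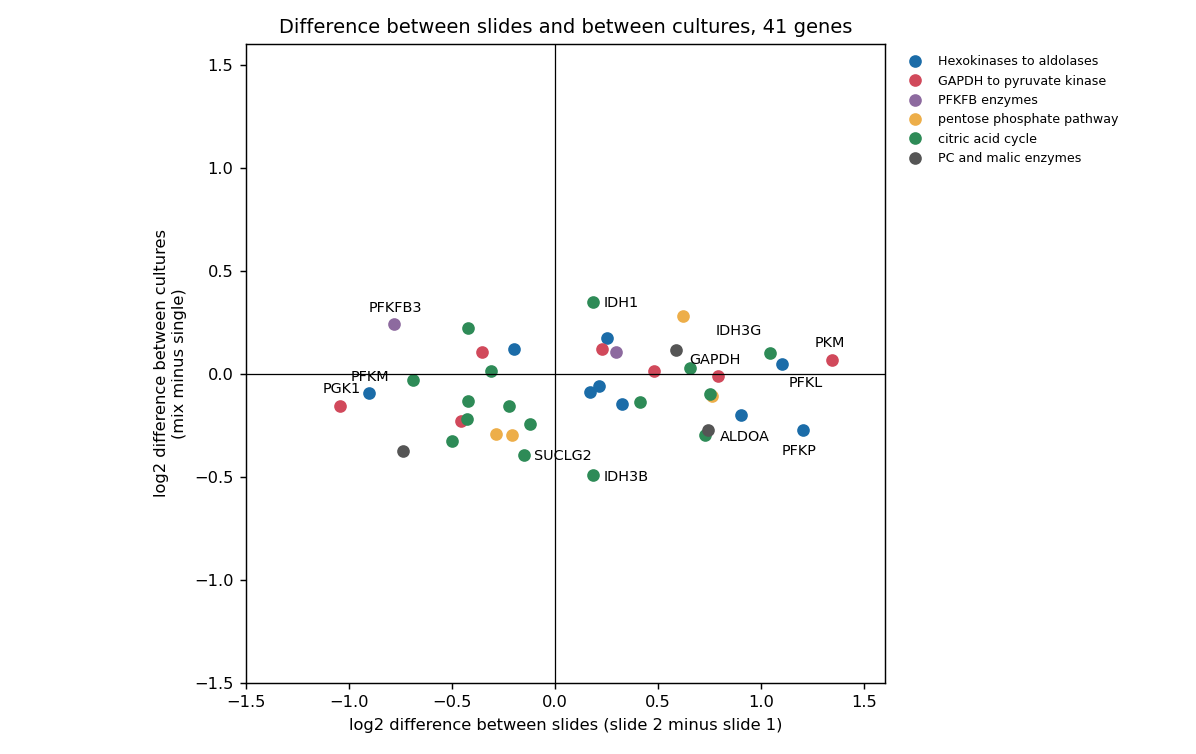
Log2 difference between slides (horizontal axis, slide 2 minus slide 1) against log2 difference between cultures (vertical axis, mix minus single) for the 41 members, coloured by role. Both axes have the same scale, and the points spread from -1.04 to 1.35 along the slide axis and from -0.49 to 0.35 along the culture axis.

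The difference between the cultures was also taken within each slide. The members' median difference was -0.19 on slide 1, where it was -0.06 over all probes, and 0.00 on slide 2, where it was -0.04. On slide 1, 28 of 41 members were lower in mix culture, and on slide 2 it was 20. For the citric acid cycle the median was -0.39 on slide 1, with 12 of 16 lower, and -0.02 on slide 2, with 8 of 16 lower.

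In 27 of 41 members (65.9%) both slides had the same sign, 17 lower and 10 higher, beside 70.7% of all probes. Slide 1 holds 1 array of each culture, so its differences have no replicate of their own. The interaction of culture and slide, chosen after seeing the data, was called for 0 members by limma, beside 0.0376% of all probes.

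**Figure D4:**
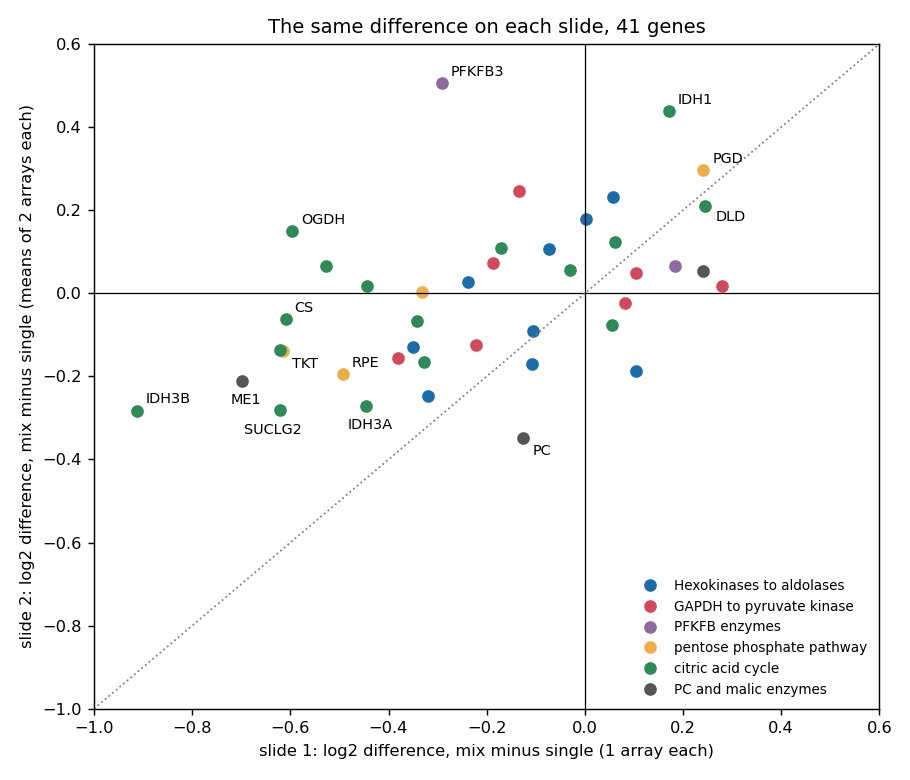
Log2 difference, mix minus single culture, on slide 1 (horizontal axis, 1 array against 1) and on slide 2 (vertical axis, 2 arrays against 2) for the 41 members, coloured by role, with the dotted line marking equal values. IDH3B, SUCLG2, ME1 and IDH3A are below 0 on both slides, IDH1, PGD and DLD above 0 on both, and PFKFB3 and OGDH change sign.

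Other probes of the same gene were compared with the brightest. Of 26 members with over 1 tested probe, 18 had all probes on one side of 0 and 8 had probes on both sides. Differences between probes of one gene ran from 0.01 (TKT) to 0.36 (PFKL), with a median of 0.11. Members with probes on both sides were ALDOC, GAPDH, ENO2, PKM, PKLR, DLST, SUCLA2 and ME2.

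**Figure D5:**
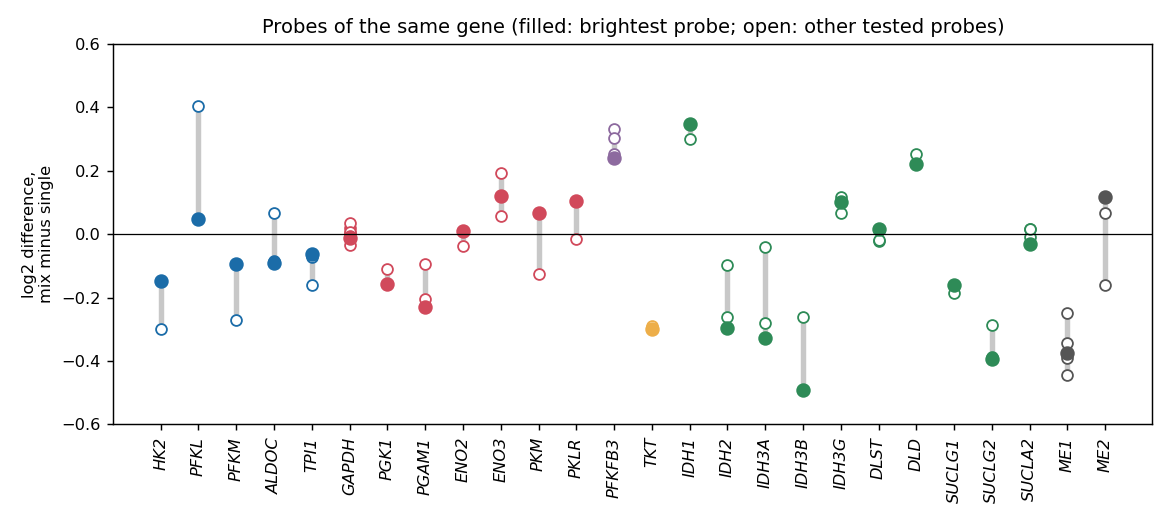
Log2 difference, mix minus single culture (vertical axis), of every tested probe of the 26 members with over 1 tested probe (horizontal axis, gene). Filled points are the brightest probe and open points the others, and grey bars join the lowest and highest. ME1 probes run from -0.44 to -0.25 and SUCLG2 probes from -0.39 to -0.29, those of GAPDH lie around 0, and PFKL shows the widest gap.

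Neighbouring genes of the same pathways were taken as a list of 47, with 42 on the array and 37 tested. Without a block, 1 of the 37 was called (2.7%), PCK1, and with the slide block 3 (8.11%), PCK1, BPGM and RBKS, all higher in mix culture. Over all probes the shares were 0.883% and 7.20%, so the share with the slide block was near the background. PCK1, the cytosolic enzyme that commits oxaloacetate to gluconeogenesis, read -2.16, -2.24 and -2.57 in single culture and 2.22, 2.35 and 1.70 in mix culture, a difference of 4.42 ± 0.22 (limma adjusted p = 0.000614). PC, the enzyme before it, differed by -0.27 as given above.

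BPGM makes a bisphosphoglycerate, a bypass of the PGK1 step. It read -3.31, -2.86 and -2.88 in single culture and -2.60, -2.10 and -1.98 in mix culture, with no overlap. The difference was 0.79 ± 0.22, with adjusted p = 0.288 without a block and 0.00392 with it.

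RBKS, the ribokinase that brings ribose to the pentose phosphate pathway, read -0.90, -0.68 and -0.78 in single culture and -0.38, -0.01 and -0.29 in mix culture, again with no overlap. The difference was 0.56 ± 0.17, with adjusted p = 0.317 without a block and 0.0270 with it. All other tested genes of that list passed neither fit.

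A list of 20 genes of the HIF1 response and glucose uptake had 19 on the array and 17 tested. PPARGC1A, a coactivator of mitochondrial and gluconeogenic genes, was called without a block (1 of 17, 5.88%; adjusted p = 0.000978) and with it, and ADM, a HIF1 target, with the slide block only, at 0.78 (adjusted p = 0.00673, against 0.326 without). In single culture PPARGC1A never stood well above background, so it was at least 3.6-fold higher in mix culture, set against the lowest signal well above background on each single culture array. It entered testing through the mix arrays alone, so its adjusted p rests on single culture values below that level. The counts of called genes in this list include it. With the slide block 2 of 17 were called (11.8%). Over all probes the shares were 0.883% without a block and 7.20% with it. HIF1A itself differed by 0.03 and the glucose transporter SLC2A1 by -0.46, and neither passed.

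The 2 introduced genes were read through the dog probes, which may or may not match the transgenes. HRAS was at -0.62 (adjusted p = 0.608, and 0.0650 with the slide block) and CTNNB1 at 0.26 (0.889, and 0.171). Of 10 kidney epithelium markers, 8 were on the array and all 8 were well above background on all 6 arrays. Their summed linear signal, scaled to the 75th percentile of each array, ran from 441.6 to 520.4 in single culture and from 329.9 to 440.8 in mix culture. KRT18 alone made up 59.2% to 71.7% of it, so the sum speaks mainly for that gene. Of the 8 markers, 1 had a fitted difference above 0, beside 42.0% of all probes, and 7 had a difference below 0. Limma called 0 without a block, beside 0.883% of all probes, and 1 had an unadjusted p under 0.05, beside 8.71%. With the slide block it called 1 (12.5%), CDH1, beside 7.20%.

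CDH1, the epithelial cadherin, read 4.11, 3.93 and 3.81 in single culture and 3.45, 3.54 and 3.44 in mix culture. Every mix array was below every single array, as for 8.66% of all probes. The difference was -0.47 ± 0.15, with an adjusted p of 0.384 in limma without a block and of 0.0444 with it. COL3A1 and DCN of fibroblasts, PTPRC of leukocytes and TEK of endothelium were well above background on no array. The scaled sums were 0.734 to 1.70 in single and 0.624 to 1.38 in mix culture for fibroblast markers, and 0.496 to 0.660 and 0.490 to 0.596 for leukocyte markers. For endothelium markers they were 5.51 to 14.1 in single and 4.67 to 14.4 in mix culture. VWF, well above background on all 6 arrays, made up most of the endothelium sum. It read 3.73, 2.27 and 2.29 in single culture and 3.77, 2.04 and 2.24 in mix culture. As in any bulk sample, fewer cells of a type and less RNA per cell cannot be told apart, and whether any of these levels has a part in the members' values was not tested.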

How the data were processed

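Per the labels, RNA of sorted cells was labelled with Cy3 and hybridised to Agilent Canine (V2) arrays. The authors deposited, for each array, the intensity of each spot, with background subtracted by Agilent Feature Extraction (11.5.1.1 on slide 1, scanned at 3 µm, and 12.1.1.1 on slide 2, scanned at 5 µm) and no scaling between arrays, per the file headers. They also deposited a table of log2 values, centred within each slide, whose columns for mix culture replicates 2 and 3 match each other's scanner file, so it served as an alternative only.

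Here log2 of the processed intensity was taken, 5 to 9 outlier spots per array were dropped, replicate spots averaged, and the 75th percentile of its array subtracted from each value. Testing required that all arrays of 1 or both cultures stood well above background (61.1% to 65.7% of spots per array were). Limma 3.58.1 in R 4.3.3 compared the cultures, two-sided, with Benjamini-Hochberg adjustment over all 26623 probes tested and a threshold of 0.05. The number of arrays and the difference between slides limit the precision. The procedure was tested on simulated data.

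Same-numbered arrays of the cultures deviated from their group means together (correlations of 0.80, 0.53 and 0.57). On slide 2, arrays of different numbers did so slightly more, at 0.61 and 0.63. These values do not set pairing by number apart from a shared slide, so the replicate block was an alternative only. Slide and replicate blocks, slide 2 alone, other scalings, filters and background corrections, the methods' t-test, the mean of a gene's probes and the omission of each array were alternatives. All members were named by role, and the 12 with the largest absolute differences among those above background on all arrays are given array by array, since none was called. Of the other lists and the cell type markers, genes called in the fit without a block or with the slide block, and HIF1A and SLC2A1, the latter chosen after their values were seen, are named. The members and lists were chosen with earlier results of these data known. All 44 gene symbols matched RefSeq symbols of UU_Cfam_GSD_1.0; positions are the files' own, on CanFam3.1.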

Additional observations from a re-analysis of the deposited data

How the results depend on the processing

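The count of 0 members called held under all 17 alternatives that start from the scanner values, and 3 (IDH1, PGD and SUCLG2) were called from the authors' table. With the replicate number as a block it was 0, and 0 with mix culture replicates 2 and 3 exchanged. In the settings that called few of all probes, as counted next, a count of 0 says little about the members. The number of all probes called, 235, was 132 with normexp, 1917 with the slide block, 143 with probes above background on all arrays, 4077 in the table of the authors, 998 on slide 2 alone, 1399 with the replicate block, 1446 with the exchanged block and 8 with the methods' t-test. Leaving out 1 array gave 92 to 247, with 92 without single culture replicate 3 or mix culture replicate 2 and 99 without mix culture replicate 3. The members' median of -0.0957 ranged from -0.1428 to 0.0536 over these omissions, and was positive without mix culture replicate 1.

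Of 41 members, 18 kept their direction in every alternative, and none of those that turned was called in any. Of the 18, all but IDH1 (0.25 to 0.45) and SUCLG2 (-0.47 to -0.29), that is 16, moved by over 1.5 times when 1 array was left out. The ranges were -0.5627 to -0.0467 for ME1, -0.5585 to -0.0503 for PC, 0.0813 to 0.4937 for PGD, -0.4803 to -0.1325 for IDH3A, -0.6133 to -0.3263 for IDH3B, -0.4127 to -0.1494 for RPE, -0.4049 to -0.1495 for TKT and -0.3589 to -0.1129 for CS. They were -0.3351 to -0.0493 for MDH1, -0.3457 to -0.0415 for PGAM1, -0.2251 to -0.039 for SUCLG1, -0.2685 to -0.0503 for HK2, 0.0234 to 0.2855 for HK1, 0.0521 to 0.2156 for GPI, 0.0103 to 0.2587 for ENO3 and 0.074 to 0.3561 for DLD. The smallest value came without single culture replicate 1 for ME1, PGD, IDH3A, RPE, TKT, CS, MDH1, PGAM1 and SUCLG1, without single culture replicate 2 for PC, without single culture replicate 3 for GPI, without mix culture replicate 1 for IDH3B, HK2 and DLD, without mix culture replicate 2 for ENO3 and without mix culture replicate 3 for HK1. The cause was not tested, but leaving out 1 array leaves the cultures unequally spread over the slides. TPI1, GAPDH and SUCLA2 turned under quantile normalization (0.108, 0.1399 and 0.0232), under normexp (0.0788, 0.1387 and 0.0386) and in the authors' table (0.1033, 0.1367 and 0.02). On slide 2 alone, TPI1 was 0.0263, GAPDH 0.0739, ENO2 -0.024, PGLS 0.0025, OGDH 0.1502, FH 0.0656 and MDH2 0.0185. With the mean of a gene's probes, GAPDH was 0.0019, ENO2 -0.0128, PKM -0.0299 and DLST -0.003.

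Over the omission of each array in turn, log2 differences ranged from -0.2897 to 0.4437 for PFKL, -0.3944 to 0.208 for PFKM, -0.661 to 0.142 for PFKP, -0.4659 to 0.136 for ALDOA, -0.1956 to 0.1045 for ALDOC, -0.1428 to 0.0536 for TPI1 and -0.2331 to 0.2937 for GAPDH. They ranged from -0.4881 to 0.206 for PGK1, -0.1659 to 0.153 for ENO2, -0.3914 to 0.5059 for PKM, -0.057 to 0.2666 for PKLR, -0.0237 to 0.1838 for PFKFB2, -0.0193 to 0.6335 for PFKFB3 and -0.3076 to 0.2012 for PGLS. For the citric acid cycle they ranged from -0.1767 to 0.2605 for ACO1, -0.4616 to 0.0252 for IDH2, -0.2346 to 0.4593 for IDH3G, -0.3411 to 0.2759 for OGDH, -0.1148 to 0.1656 for DLST, -0.2835 to 0.1764 for SUCLA2, -0.3724 to 0.1073 for FH and -0.3294 to 0.0784 for MDH2. For ME2 the range was -0.111 to 0.3024.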
